A study of Saccharomyces cerevisiae with 5 samples.

Results

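The genes described here encode the machinery that brings proteins into mitochondria and folds them there, in budding yeast that lack SUL1, a sulfate permease of the plasma membrane, and in wild-type cells. The 34 members were chosen by gene symbol and not by a measured value, though with earlier results of these data known. All 34 were found among the 5886 genes that both deposited tables list. The 3 SUL1 knockout libraries came from BY4741, a haploid laboratory strain of S288C background, harvested at an optical density of 0.6. The 2 wild-type libraries carry the same S288C strain label, and no optical density is given for them. Both groups were cultured at 30 °C in the rich medium YPD, with 2% glucose, 2% peptone and 1% yeast extract, and the series calls the cells exponential. The labels call every library a biological replicate but do not say how the deletion was made or from how many clones the libraries came. The design text speaks of 1 more wild-type library, which is not analysed here. The series asks how loss of SUL1 lengthens replicative lifespan, which counts the divisions of a mother cell.

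Nearly all mitochondrial proteins are made in the cytosol as precursors and enter through the TOM complex of the outer membrane. From there SAM inserts barrel-shaped outer membrane proteins, the MIA pathway oxidises small proteins of the intermembrane space, and small TIM chaperones hand carrier proteins to the TIM22 translocase. Precursors with a cleavable presequence pass through TIM23 and are pulled into the matrix by the PAM motor, where chaperones fold them. In yeast many of these genes are needed for growth, also on glucose.

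SUL1 was listed at 0 FPKM in the 3 knockout libraries and at 8.28 and 9.78 FPKM in wild-type replicates 1 and 2, so its transcript followed the labels. FPKM counts sequenced fragments, scaled to transcript length and to the total of the library. The knockout libraries held an estimated 24500000 to 24850000 fragments and the wild-type libraries 24950000 and 22550000. STE2, the receptor of mating type a cells, had 115 to 145 FPKM in the 5 libraries, and STE3, its counterpart in mating type alpha, had 8.38 to 11.8. Other mating-type genes were not as clear. BAR1 of mating type a had 8.60 to 16.95 FPKM, which overlaps STE3 and the mating type alpha gene SAG1 (8.26 to 11.6). The alpha genes MF(ALPHA)1 and MF(ALPHA)2 had 0 to 0.80 and 4.97 to 8.44. Knockout replicate 2 stood apart from its group. Over all genes tested its median absolute log2 difference was 0.170 from knockout replicate 1 and 0.180 from knockout replicate 3, but 0.118 from wild-type replicate 1, about that between the wild-type libraries (0.117). Calls that rest on this library are given with and without it, as are the fold changes of the matrix chaperone genes SSC1, HSP60, MDJ1 and HSP10.

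No import or folding gene changed past the threshold. Of the 34 members, 0 were called higher and 0 lower (limma, Benjamini-Hochberg adjusted p under 0.05 over all 5712 genes tested), where 0.193% of all genes were called higher and 0.0700% lower. At an unadjusted p under 0.05 (limma), 6 members were lower, or 17.6% against 11.6% of all genes, and 0 were higher, against 6.92%. The 6 were TOM70, TOM71, TOM40, TIM23, TIM17 and TIM44, which are receptors, channel subunits and the tether of the import motor. With all 5 libraries their log2 fold changes, knockout minus wild type, ran from -0.34 (TOM70) to -0.25 (TIM17). With wild-type replicate 2 left out, they ran from -0.29 (TOM71) to -0.19 (TIM44), and were smaller for all but TIM17. The median was then -0.06 over the 34 members and -0.07 over all genes tested. All 3 knockout libraries lay below both wild-type libraries for 14 members, or 41.2% against 28.0% of all genes, and above both for 4, or 11.8% against 13.1%. The median log2 fold change, knockout minus wild type on log2(FPKM + 1), was -0.09 over the members and -0.07 over all genes tested. It was negative for 22 of the 34, or 64.7%, against 62.6% of all genes, and positive for 12, against 37.4% of all genes that were positive. Without knockout replicate 2, TOM71 was called lower (-0.35 ± 0.09 SE, limma, adjusted p = 0.0338), and no other member was called in any fit. That fit called 10.5% of all genes lower and 5.22% higher, so the 1 member called lower and 0 called higher of 34 are not above the background.

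**Figure D1:**
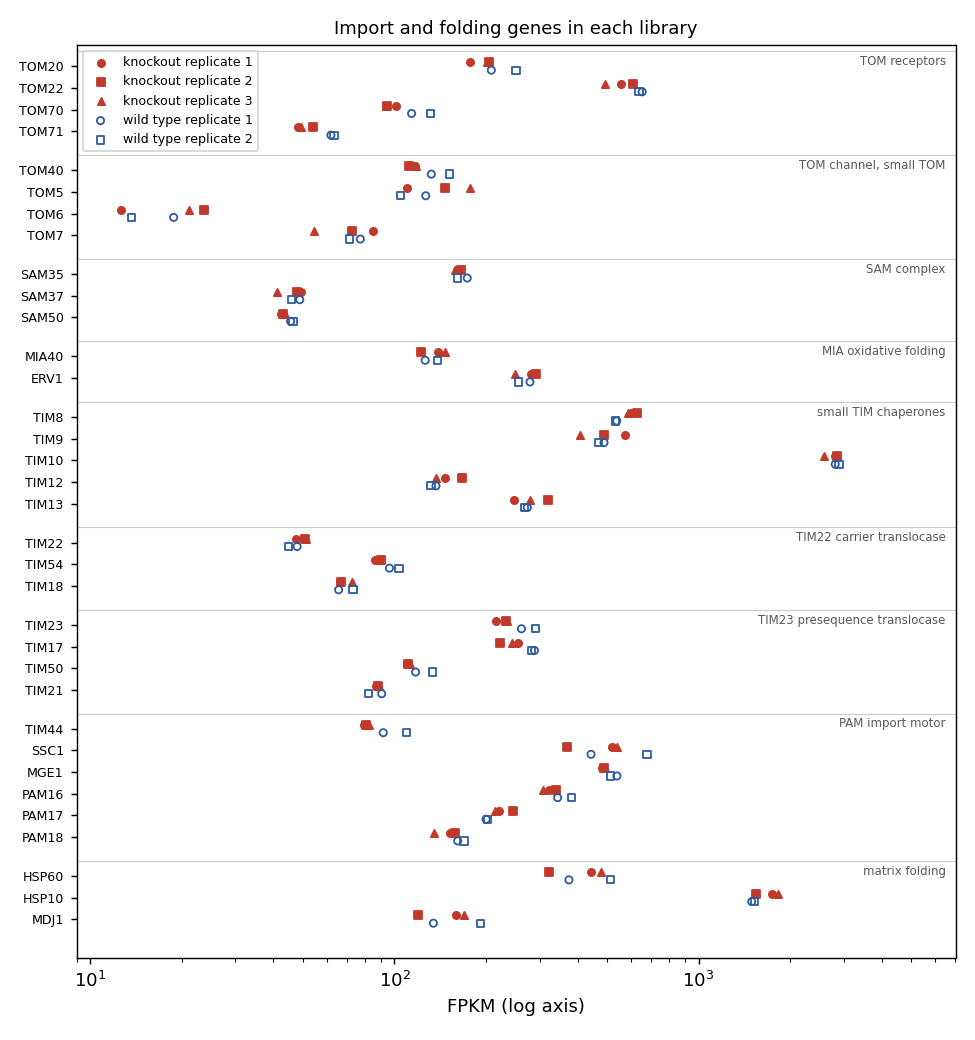
FPKM on a log axis for the 34 import and folding genes, by role group, with 1 point per library (filled red, 3 knockout libraries; open blue, 2 wild-type libraries). The wild-type points of TOM70, TOM40, TIM23 and TIM44 lie to the right of all knockout points, whereas for SSC1, HSP60 and MDJ1 wild-type replicate 1 lies among the knockout points and wild-type replicate 2 to the right of them.

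The receptors of the TOM complex had lower levels in every knockout library than in both wild-type libraries, all 4 of them, though none passed the test. TOM70 (YNL121C, chromosome XIV, 398684 to 400537 of build R64, reverse strand, 1 coding exon), the receptor for carrier proteins without a presequence, had 101, 94.4 and 93.97 FPKM in knockout replicates 1, 2 and 3, and 114 and 131 in the wild type. This is a mean of 96.6 ± 4.17 (SD, n = 3) against 122 ± 12.1 (SD, n = 2). The log2 fold change was -0.34 ± 0.10 (SE, limma, adjusted p = 0.182). The 2 wild-type libraries differed from each other by about as much as the nearer one differed from the knockout mean. As RNA of whole cultures was measured, fewer cells with a transcript and less of it per cell cannot be told apart, here and below.

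TOM71 (YHR117W, chromosome VIII, 342349 to 344268, forward strand), a less abundant paralog of TOM70, had 48.1, 53.98 and 49.4 FPKM in the knockout and 61.8 and 63.2 in the wild type (-0.30 ± 0.09 SE, limma, adjusted p = 0.196). Its wild-type libraries lay close together and clear of the knockout. The coding sequences of TOM70 and TOM71 are 64.1% identical over 1786 aligned bases and share no identical run longer than 12 bases. The ratio of TOM70 to TOM71 FPKM was 2.11, 1.75 and 1.90 in the knockout and 1.84 and 2.07 in the wild type, so the groups overlapped in it.

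TOM22 (YNL131W), the central receptor that also organises the complex, was the most abundant of the receptors. It had 555, 610 and 493 FPKM in the knockout and 652 and 637 in the wild type (-0.23 ± 0.11 SE, limma, adjusted p = 0.299). TOM20 (YGR082W), which recognises presequences, had 177, 204 and 201 FPKM in the knockout against 208 and 251 (-0.24 ± 0.11 SE, limma, adjusted p = 0.304). For both, the highest knockout library came close to the lowest wild-type library.

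The channel itself behaved like the receptors. TOM40 (YMR203W, chromosome XIII, 668492 to 669655, forward strand), the barrel protein that forms the pore, had 116, 112 and 117 FPKM in the knockout and 132 and 152 in the wild type. The means were 115 ± 2.96 (SD, n = 3) and 142 ± 13.9 (SD, n = 2), with a difference in log2 of -0.30 ± 0.09 (SE, limma, adjusted p = 0.201). The knockout libraries were tightly grouped, and wild-type replicate 2 was the high one.

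The small TOM proteins, which stabilise the complex, could not be placed on the same scale. The steps between low FPKM values were best matched by whole fragments over a length 135 to 145 bp shorter than the coding length, and TOM5, TOM6 and TOM7 have coding lengths of only 153, 186 and 183 bp. Their levels are therefore not compared with those of longer genes. TOM5 (YPR133W-A) had 110, 147 and 177 FPKM in the knockout and 127 and 105 in the wild type (0.30 ± 0.20 SE, limma, adjusted p = 0.435), and its groups overlapped. TOM6 was the most scattered of the members within groups, with a pooled within-group SD of 0.41 in log2 and values from 12.6 to 23.7 FPKM in the knockout alone. TOM7 lay between 54.6 and 84.8 FPKM in the knockout and at 77.2 and 70.96 in the wild type.

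The SAM genes differed little between the groups. SAM50 (YNL026W), the barrel protein at the core of the complex, had 42.3, 43.1 and 43.7 FPKM in the knockout and 45.6 and 46.4 in the wild type. All knockout libraries lay below both wild-type libraries, by a small amount, and the log2 fold change was -0.09 ± 0.09 (SE, limma, adjusted p = 0.550; 95% interval -0.30 to 0.11). SAM35 (YHR083W), which recognises the sorting signal of barrel proteins, was the most abundant of the 3 at 160, 166 and 158 FPKM in the knockout and 174 and 162 in the wild type, with overlap. SAM37 had a log2 fold change of -0.04 (95% interval -0.30 to 0.22).

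The MIA pathway showed no separation of the groups. MIA40 (YKL195W), the oxidoreductase that traps small cysteine-rich precursors as they arrive, had 139, 123 and 147 FPKM in the knockout and 126 and 138 in the wild type, a log2 fold change of 0.04 with a 95% interval of -0.21 to 0.29. ERV1 (YGR029W), the sulfhydryl oxidase that reoxidises MIA40 and the only member with 2 coding exons, had 282, 291 and 249 FPKM against 279 and 256 (0.03, 95% interval -0.20 to 0.27). Changes of either gene inside these intervals cannot be told from none with 5 libraries.

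The 5 small TIM chaperones are typical MIA substrates, and each carries a pair of cysteine couples that become disulfide bonds. Their genes are shown from the first to the last codon of these couples, read from build R64 on the coding strand, because the pattern is what the family shares and the choice of members did not use it. Capitals mark the cysteine codons of the couples, with 3 codons between the members of a couple.
TIM8, chrX:677100-677174, forward strand: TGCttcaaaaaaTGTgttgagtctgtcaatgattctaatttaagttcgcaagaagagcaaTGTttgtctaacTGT
TIM9, chrV:117313-117387, forward strand: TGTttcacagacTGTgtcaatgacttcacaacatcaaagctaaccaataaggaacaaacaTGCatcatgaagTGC
TIM10, chrVIII:115707-115784, reverse strand: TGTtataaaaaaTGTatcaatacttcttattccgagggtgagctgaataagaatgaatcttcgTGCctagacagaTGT
TIM12, chrII:427287-427367, reverse strand: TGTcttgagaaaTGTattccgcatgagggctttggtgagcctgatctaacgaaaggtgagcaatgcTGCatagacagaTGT
TIM13, chrVII:858455-858517, forward strand: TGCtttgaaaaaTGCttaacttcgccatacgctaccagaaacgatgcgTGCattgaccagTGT
TIM8, TIM9, TIM10 and TIM13 have 4 cysteine codons in all and TIM12 has 6. The couples are 15 codons apart in TIM8 and TIM9, 16 in TIM10, 17 in TIM12 and 11 in TIM13.

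TIM10 had the highest FPKM of the members, followed by HSP10. TIM10 (YHR005C-A), which with TIM9 forms the main chaperone of carrier proteins in the intermembrane space, had 2802, 2845 and 2578 FPKM in the knockout and 2815 and 2899 in the wild type (-0.06 ± 0.09 SE, limma, adjusted p = 0.714). TIM9 had 575, 487 and 409 FPKM in the knockout and 489 and 470 in the wild type. Since a short coding length raises FPKM through the length correction above, the distance between these levels and those of long genes is uncertain, but TIM9 and TIM10 are close in length, at 264 and 282 bp. The TIM9 to TIM10 ratio of FPKM was 0.159 to 0.205 in the knockout and 0.162 and 0.174 in the wild type.

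TIM8 (YJR135W-A), partner of TIM13 in a second small TIM chaperone, was higher in all knockout libraries than in both wild-type libraries. It had 598, 626 and 588 FPKM against 538 and 534, which is 0.17 ± 0.08 in log2 (SE, limma, adjusted p = 0.297). TIM12, which docks the small TIM chaperone on the TIM22 complex, also lay above, at 147, 166 and 137 FPKM against 137 and 132, with knockout replicate 3 almost level with wild-type replicate 1. TIM13 overlapped between the groups, from 247 to 320 FPKM in the knockout around 274 and 268 in the wild type. After removal of the trend of fold change on coding length, the log2 fold change of TIM8 was -0.0037 and that of TIM12 0.02.

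In the TIM22 translocase, which inserts carrier proteins into the inner membrane, the subunits did not move together. TIM54 (YJL054W), a subunit exposed to the intermembrane space, had 86.5, 90.1 and 89.6 FPKM in the knockout and 96.3 and 103 in the wild type (-0.17 ± 0.09 SE, limma, adjusted p = 0.324), without overlap. TIM22, the pore-forming subunit, had a mean of 49.8 ± 2.14 FPKM (SD, n = 3) against 46.4 ± 2.06 (SD, n = 2), with overlap. TIM18, a membrane subunit related to a succinate dehydrogenase subunit, had 68.6 ± 3.57 against 69.3 ± 5.37.

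Both channel subunits of the presequence translocase had lower values in the knockout. TIM23 (YNR017W, chromosome XIV, 662913 to 663581, forward strand) had 216, 232 and 234 FPKM in the knockout and 262 and 290 in the wild type, means of 227 ± 10.1 (SD, n = 3) and 276 ± 20.3 (SD, n = 2). Its log2 fold change was -0.28 ± 0.09 (SE, limma, adjusted p = 0.207). TIM17 (YJL143W, chromosome X, 147101 to 147577, forward strand), its partner in the membrane, had 256, 222 and 243 FPKM against 289 and 282 (-0.25 ± 0.09 SE, limma, adjusted p = 0.236). The groups did not overlap for either gene, and the order of the libraries within the groups was not the same for the 2 genes.

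TIM50, the receptor that passes presequences to TIM23, had 110, 111 and 112 FPKM in the knockout and 117 and 133 in the wild type (-0.17, 95% interval -0.38 to 0.04). The knockout libraries were nearly equal, and the distance to the wild type was set mostly by wild-type replicate 2. TIM21, which links the translocase to the respiratory chain, overlapped at 87.0 to 89.3 FPKM in the knockout and 90.8 and 82.3 in the wild type.

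Among the genes of the import motor, TIM44 (YIL022W, chromosome IX, 311165 to 312460, forward strand), which tethers the motor to the channel, had the largest difference. It had 79.2, 80.5 and 82.2 FPKM in the knockout and 91.9 and 110 in the wild type, means of 80.6 ± 1.51 (SD, n = 3) and 101 ± 12.7 (SD, n = 2). In log2 it differed by -0.31 ± 0.10 (SE, limma, adjusted p = 0.203). The 3 knockout libraries agreed closely while the wild-type libraries were far apart. PAM16 and PAM18, the regulator and the J protein that together control the motor's ATPase, also lay below the wild type in every library. PAM16 had 309 to 339 FPKM in the knockout and 344 and 382 in the wild type, and PAM18 had 135 to 159 against 161 and 169. Their ratio was 2.11 to 2.29 in the knockout and 2.13 and 2.25 in the wild type. PAM17, a further motor subunit, lay above instead, at 215 to 245 FPKM against 200 and 202 (0.17, 95% interval -0.05 to 0.39).

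SSC1 (YJR045C, chromosome X, 519638 to 521602, reverse strand) encodes the mitochondrial Hsp70 that drives the motor and also folds proteins in the matrix. It had 518, 369 and 538 FPKM in knockout replicates 1, 2 and 3, and 443 and 677 in wild-type replicates 1 and 2. The highest and the second lowest library were both wild type, and the log2 fold change was -0.22 ± 0.23 (SE, limma, adjusted p = 0.601). Without knockout replicate 2 it was -0.05 ± 0.20 (SE, limma). MGE1 (YOR232W), the nucleotide exchange factor of SSC1, had 480, 490 and 494 FPKM in the knockout and 539 and 515 in the wild type, without overlap. In FPKM, the MGE1 to SSC1 ratio lay between 0.918 and 1.33 in the knockout and was 1.22 and 0.761 in wild-type replicates 1 and 2.

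HSP60 and MDJ1, named after their values were seen, varied between libraries as SSC1 did. HSP60, the barrel-shaped chaperonin of the matrix, had 444, 322 and 478 FPKM in the knockout and 375 and 513 in the wild type. MDJ1, the J protein that delivers unfolded proteins to SSC1, had 160, 120 and 169 FPKM in the knockout and 134 and 192 in the wild type. Knockout replicate 2 was the lowest library and wild-type replicate 1 the next lowest for both genes. The log2 fold changes of HSP60 and MDJ1 were -0.10 and -0.12, and without knockout replicate 2 they were 0.07 and 0.03.

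The MDJ1 to SSC1 ratio of FPKM was 0.309, 0.325 and 0.314 in the knockout and 0.303 and 0.284 in the wild type, and the SSC1 to HSP60 ratio was 1.16, 1.15 and 1.13 against 1.18 and 1.32. These ratios moved far less between libraries than the levels. HSP10 (YOR020C), the lid of the chaperonin, had 1745, 1542 and 1824 FPKM in the knockout and 1496 and 1529 in the wild type (0.17 ± 0.10 SE, limma, adjusted p = 0.380). It lay above both wild-type libraries in every knockout library, and knockout replicate 2 was again the lowest of its group. With the length trend removed its log2 fold change was 0.03. Without knockout replicate 2 it was 0.24 ± 0.08 (SE, limma, adjusted p = 0.0840). The HSP10 to HSP60 ratio of FPKM was 3.93, 4.79 and 3.82 in the knockout and 3.99 and 2.98 in the wild type, so the partners did not keep a fixed proportion.

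Knockout replicate 2 was below both other knockout libraries, and wild-type replicate 1 below wild-type replicate 2, for 6 members: SSC1, HSP60, HSP10, MDJ1, TOM40 and MIA40. This order was found for 20.2% of all genes tested, so the count of 17.6% of the members is not above it. The steps of SSC1, HSP60 and MDJ1 were large. SSC1 was lower in knockout replicate 2 than the mean of the other knockout libraries by 0.52 in log2, HSP60 by 0.52 and MDJ1 by 0.45, and the step from wild-type replicate 2 to replicate 1 was 0.61, 0.45 and 0.51. Of the members of at least 250 bp, these 3 had the largest within-group spread, pooled SDs of 0.35, 0.31 and 0.30 in log2.

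Most cytosolic chaperone genes of the list that carries precursors to the outer membrane varied between libraries the same way. The order held for 6 of the 8 genes of that list, namely the Hsp70 genes SSA1 and SSA2, the Hsp90 genes HSC82 and HSP82, the cochaperone STI1 and the J protein YDJ1. It did not hold for the J protein genes DJP1 and XDJ1. DJP1 had 67.6, 59.9 and 67.3 FPKM in the knockout and 72.1 and 69.1 in the wild type, so every knockout library lay below both wild-type ones. Its log2 fold change of -0.12 was not called (limma, adjusted p = 0.489). SSA1 had 1692, 893 and 1756 FPKM in the knockout and 940 and 1751 in the wild type. HSP82, chosen after its values were seen, had 850, 400 and 867 FPKM against 454 and 925. Reads shared between the near-identical pairs SSA1 and SSA2, and HSC82 and HSP82, make the split within each pair uncertain. The 8 genes had a median log2 fold change of 0.02, and 0 were called in either direction (limma, 0 at an unadjusted p under 0.05). What part the libraries' chaperone level had in the other results was not tested.

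**Figure D2:**
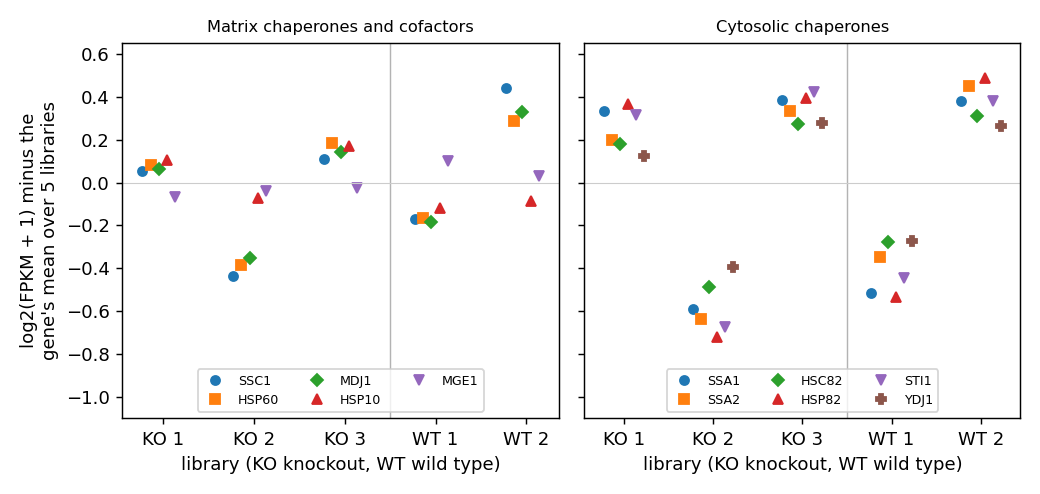
log2(FPKM + 1) minus each gene's mean over the 5 libraries, for 5 matrix chaperones and cofactors (left) and 6 cytosolic chaperones (right), with 1 symbol per gene in each library. Knockout replicate 2 and wild-type replicate 1 are low and the other 3 libraries high for SSC1, HSP60 and MDJ1 as for the cytosolic genes, whereas MGE1 stays near 0.

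The promoters of these genes were searched for heat shock elements, the sites of the heat shock factor Hsf1, in the 300 bases before the start codon on both strands. The letters used were GAANNTTCNNGAA and its reverse complement TTCNNGAANNTTC, where N is any base. Of 5711 genes tested that had such a window, 0.858% held a match. Among the 34 members HSP60 and HSP10, the partners of the chaperonin, held 1 each, and both are shown from build R64 with the match in capitals.
HSP60, chrXII:665177-665235, reverse strand: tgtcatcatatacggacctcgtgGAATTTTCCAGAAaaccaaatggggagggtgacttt
HSP10, chrXV:370969-371027, reverse strand: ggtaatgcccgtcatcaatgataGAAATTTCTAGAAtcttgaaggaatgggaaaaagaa
The match began 210 bases before the start codon in HSP60 and 160 bases before it in HSP10. These letters were not in the windows of SSC1 and MDJ1. Among the cytosolic chaperones SSA1, SSA2 and STI1 held a match. The shorter forms TTCNNGAA and GAANNTTC, which lie inside the longer ones, were found for 8 members, or 23.5% against 22.3% of all genes. The stress response element, AGGGG or CCCCT, was found for 4 members (SSC1, TIM10, TIM13 and SAM35), or 11.8% against 22.3% of all genes. A match describes the letters of a window and does not show that a factor binds there.

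The fold changes of the members followed their coding length, as those of all genes did. Spearman's rho of log2 fold change with coding length was -0.56 over the 34 members and -0.52 over all 5712 genes, given as a description of genes that share the same 5 libraries. The 9 members under 350 bp had a median log2 fold change of 0.15 and the 25 longer ones -0.15, where all genes had 0.18 and -0.08. With a smooth trend on length removed from each library, rho over the members was 0.05. The median of the members was then -0.09 against -0.01 over all genes, and 27 of the 34 were negative, against 3068 of all 5712 genes. TIM17 and TIM23 stood at -0.33 and -0.31, TOM40, TIM44, TOM70 and TOM71 at -0.25, -0.25, -0.23 and -0.19, and TOM5 at 0.03. No member was called in this fit (limma, lowest adjusted p of a member 0.332). At an unadjusted p under 0.05 (limma), 8 members were lower and 0 higher, where 11.9% of all genes passed in either direction. TIM17 and TIM23 are 477 and 669 bp long, lengths at which the median of all genes was slightly positive as deposited.

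**Figure D3:**
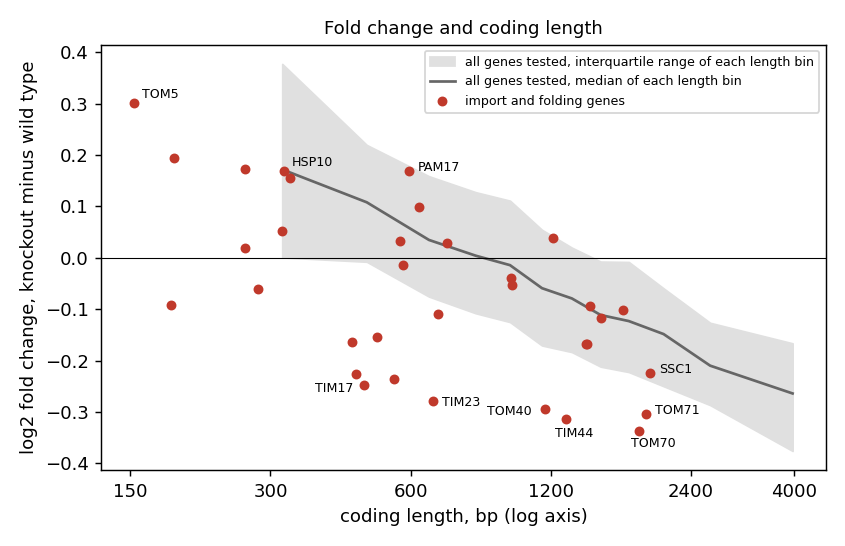
log2 fold change, knockout minus wild type, against coding length in bp on a log axis, for the 34 members (points) and for all genes tested (line, median of 12 length bins; band, their interquartile range). The all-gene median runs from 0.17 in the shortest bin to -0.26 in the longest, and TIM17, TIM23, TOM40, TIM44, TOM70 and TOM71 lie below the band. Other members also lie below it, among them TOM20, TOM22, PAM16 and PAM18.

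**Figure D4:**
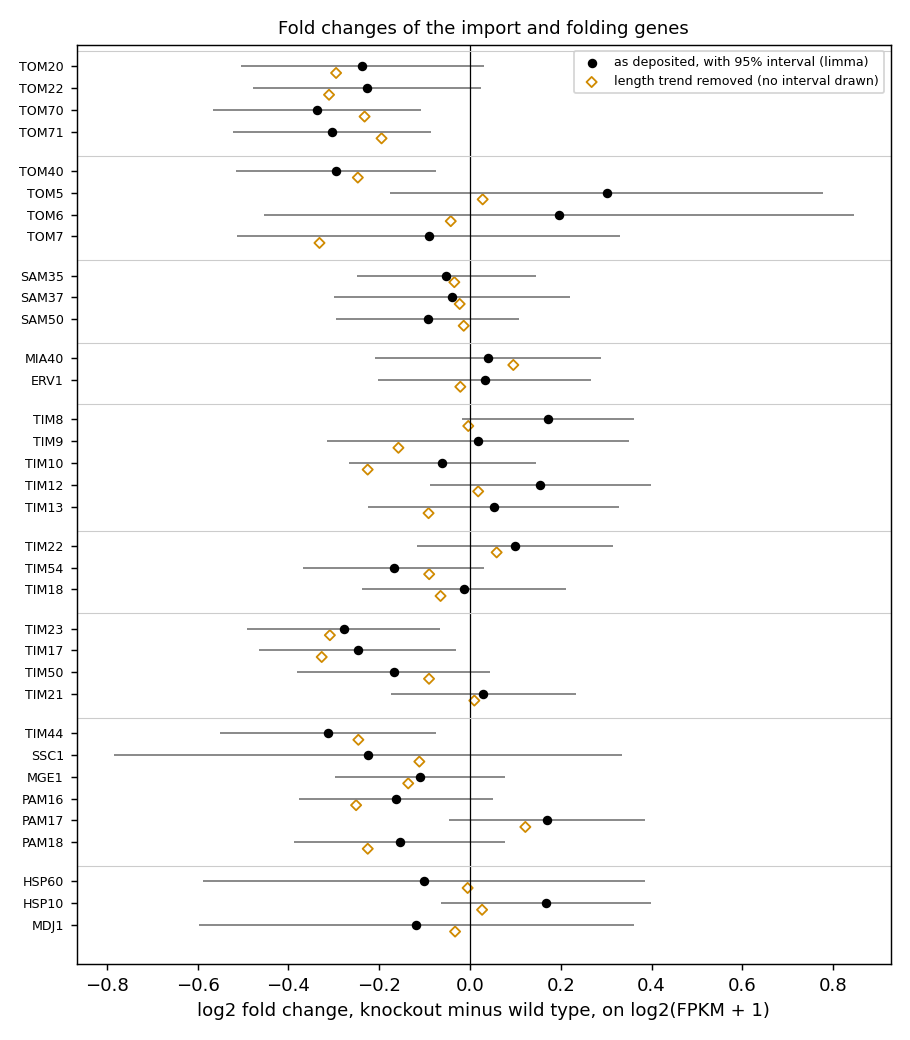
log2 fold change of each member as deposited with its 95% interval (black, limma) and with the length trend removed (open diamonds), by role group. The intervals of TOM70, TOM71, TOM40, TIM23, TIM17 and TIM44 end below 0 before adjustment for multiple tests, and those of the small TOM proteins, SSC1, HSP60 and MDJ1 are the widest.

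Other genes that serve import were read out of the same fit in 8 lists of 65 genes, all of them tested. Of these, 0 were called higher and 0 lower over all genes (limma), and their median log2 fold change was -0.02. At an unadjusted p under 0.05 (limma), 8 of the 65 were higher and 3 lower, against 6.92% and 11.6% of all genes. Of the 8 higher genes, 5 were in the outer membrane list below.

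The list of outer membrane genes and partners of TOM and SAM had mostly values in the direction opposite to the TOM receptors. Of its 8 genes, 5 lay above both wild-type libraries in every knockout library, against 13.1% of all genes, and the median was 0.29. MGR2, which encodes a protein of the inner membrane, is also in the list and overlapped between the groups (0.06). OM14, a docking protein for ribosomes on the outer membrane, had 729, 584 and 675 FPKM in the knockout and 420 and 429 in the wild type. Its log2 fold change was 0.64 ± 0.11 (SE, limma, adjusted p = 0.0877), and without knockout replicate 2 it was called, at 0.72 ± 0.09 (limma, adjusted p = 0.00336). OM45, an abundant outer membrane protein, had 86.8, 81.0 and 94.5 FPKM against 68.7 and 62.2 (0.41, limma, adjusted p = 0.169) and was also called without that library (0.46 ± 0.10 SE, limma, adjusted p = 0.0202). The fit without that library called 5.22% of all genes higher and 10.5% lower. Of the 65 related genes it called 2 higher and 1 lower, which is not above the background. MIM1, MIM2 and the porin POR1, chosen after their values were seen, had log2 fold changes of 0.32, 0.32 and 0.26 without a call. MIM1 and MIM2 form the insertase for helical outer membrane proteins. With the length trend removed the median of the list was 0.17. The difference between this list and the TOM receptors was not tested.

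Insertases and proteases of the inner membrane went the way of TIM23. In 10 of the 11 genes all knockout libraries lay below both wild-type libraries, against 28.0% of all genes, and the median was -0.16, or -0.11 with the length trend removed. AFG3, a subunit of the matrix-facing AAA protease, had 27.8, 27.2 and 25.4 FPKM in the knockout and 30.8 and 37.2 in the wild type (-0.33, limma, adjusted p = 0.221). The exception was COX18, which helps insert a cytochrome oxidase subunit, at 40.9, 39.7 and 39.3 FPKM against 32.6 and 34.04 (0.26, limma, adjusted p = 0.222). No gene of this list was called, also without knockout replicate 2.

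Peptidases that process imported precursors had a median of -0.02 over 9 genes. MAS2, a subunit of the processing peptidase that removes presequences, had 54.1, 51.3 and 49.7 FPKM in the knockout and 57.7 and 64.2 in the wild type (-0.23, limma, adjusted p = 0.256), and its partner MAS1, chosen after its values were seen, overlapped at 46.1 ± 3.59 (SD, n = 3) and 46.7 ± 2.87 (SD, n = 2). The octapeptidyl peptidase OCT1 had 6.94 ± 0.76 against 8.30 ± 0.23 FPKM. Other matrix chaperones had a median of -0.0012 over 8 genes. Among them MDJ2, a J protein of the inner membrane, had 6.79, 12.1 and 6.10 FPKM in the knockout and 9.93 and 9.99 in the wild type. It had a log2 fold change of -0.29, and without knockout replicate 2, its highest library, it was called lower (-0.56 ± 0.13 SE, limma, adjusted p = 0.0280). The fit without that library called 10.5% of all genes lower. MCX1, related to the unfoldase ClpX, had -0.19. Cysteine-rich proteins of the intermembrane space, imported through MIA40 like the small TIM proteins, were listed together with HOT13. The median over these 10 genes was 0.07. With the length trend removed the median was -0.09, and 9 of the 10 were negative. The largest value was that of CMC4, a short gene of 222 bp, at 0.64 ± 0.23 (SE, limma, adjusted p = 0.228), or 0.44 with the length trend removed. It had 23.6, 29.0 and 30.9 FPKM in the knockout and 13.3 and 22.6 in the wild type. COX12, a subunit of cytochrome oxidase, had 0.17, or -0.02 with the length trend removed.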

How the data were processed

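Values are FPKM by gene and library, as the authors deposited them (per the file headers), in a table for each group, with every column scaled separately. The submitters' processing notes name build R64, RSEM 1.3.1, HISAT2 2.1.0, DESeq2 1.4.5 and Bowtie2; the role of each, and the annotation, strand and read length, are not given in the sources used. Coding lengths and coordinates came from RefSeq's R64 annotation, in which 5883 of 5886 gene identifiers matched. No member overlaps another gene there. Symbols of 2 genes turned into dates were restored by identifier, and 1 symbol was matched through a synonym.

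FPKM were tested with limma 3.58.1 (R 4.3.3) on log2(FPKM + 1), a scale that understates changes of low genes, with trended and robust empirical Bayes moderation. The 5712 genes whose mean reached 1 FPKM entered, all 34 members among them, and 174 did not. The model held genotype alone over all 5 libraries, with Benjamini-Hochberg adjustment and a threshold of 0.05. p-values measure the spread between these libraries. On simulated data for this comparison over 5712 genes, with 250 genes changed at each fold over 5 simulations, 76.0% of 1.5-fold and 97.2% of 2-fold changes were recovered, with 55 false calls. Changed genes were drawn from those of at least 10 FPKM, with noise independent between genes. Shifts that many genes of a library share, such as the length trend, were not simulated, so recovery may be overstated. The changes of all members were below 1.5-fold, a range not simulated. Alternatives varied the pseudocount, filter, scaling, length trend, moderation and libraries.

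Depth was estimated from steps between low FPKM values (genes of 250 to 1200 bp, up to 1.5 FPKM): 87.0% to 92.6% of 99 to 122 values per library lay within 0.15 of a whole fragment number, against 25.0% to 27.3% at the median depth tried. On 3 simulated libraries the error was at most 0.493%. Members of at least 250 bp had 485 to 27772 estimated fragments per library, a counting error of 4.54% to 0.600%. Depths entered no test.

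Members and gene lists were chosen with earlier results of these data known. Values per library are given for the 10 members with the smallest p, for the most abundant and the most changed member of each of 9 role groups, and for other members after their values were seen. From each related list come the 2 genes with the largest change. Other steps used Python 3.11.15 with numpy 2.4.6, pandas 2.3.3, matplotlib 3.10.9 and scipy 1.17.1.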

Additional observations from a re-analysis of the deposited data

How the results depend on the processing

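The counts of called members were 0 higher under all 14 alternatives and 0 lower under all but 1, the fit without knockout replicate 2, which called 1 (TOM71, log2 fold change -0.35). Over all genes the calls were 11 higher and 4 lower as reported. They were 4 higher with equal FPKM sums, 5 higher and 1 lower with the length trend removed, 7 higher without trended and robust moderation, and 2 lower with a mean of at least 10 FPKM. Leaving out 1 library gave 0 to 298 higher and 0 to 598 lower, the highest without knockout replicate 2. An alternative chosen after seeing the data, the length trend removed without knockout replicate 2, gave 188 higher and 100 lower. Related genes called were 0 as reported, 0 to 2 higher and 0 to 1 lower when 1 library was left out, and 2 higher and 1 lower in that added alternative.

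The median log2 fold change of the members, -0.09, was -0.183 with equal FPKM sums and -0.0285 with median ratio scaling, where the median of all genes was -0.16 and -0.01, and it ranged from -0.101 to -0.0593 when 1 library was left out. With equal sums 12 members were lower and 0 higher at an unadjusted p under 0.05 (limma), where 29.5% of all genes passed in either direction. With median ratio scaling 2 members were lower and 2 higher, where 17.6% of all genes passed in either direction. With a replicate block the median was -0.0713, 0 members were lower at an unadjusted p under 0.05, and 0 genes were called higher and 0 lower over all genes (limma, 399 at an unadjusted p under 0.05). Same-numbered libraries deviated in opposite directions (correlation -0.37 for number 1 and -0.43 for number 2 over 5712 genes), so the numbers were not read as pairs.

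Of 252 values for 18 members under the alternatives, 236 kept direction and call, 1 gained a call and 15 changed sign, none of them called. SAM35 was 0.0120 and TIM10 0.0041 with median ratio scaling. With equal sums MIA40 was -0.0525 and ERV1 -0.0601, and with the replicate block MIA40 was -0.0171. With the length trend removed ERV1 was -0.0213 and TIM8 -0.0037, and with knockout replicate 2 also left out ERV1 was -0.0534, TIM8 -0.0098 and SSC1 0.0776. Leaving out 1 library at a time gave -0.0255 to 0.113 for MIA40, -0.0288 to 0.0983 for ERV1 and -0.53 to 0.0801 for SSC1. The cause of these shifts was not tested. Fits without 1 wild-type library assume that the lone library varies like the knockout group.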

Other observations

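None of the genes of the response to blocked import was called. All 5 genes of that list had negative log2 fold changes, with a median of -0.22, or -0.10 with the length trend removed, and 0 passed the threshold (limma, 1 at an unadjusted p under 0.05). CIS1, which recruits the extractor MSP1 to the translocase, had 41.2, 42.6 and 27.2 FPKM in the knockout and 71.5 and 37.4 in the wild type, so the groups overlapped. PDR5, a drug efflux pump under the same regulator PDR3, had 94.4, 79.0 and 64.9 FPKM against 116 and 113 (-0.54, limma, adjusted p = 0.182), without overlap.

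The MICOS complex, which holds the inner membrane to the outer at contact sites, had a median log2 fold change of 0.06 over 6 genes, and 0 were called (limma, 1 at an unadjusted p under 0.05). MIC12 had 393, 356 and 332 FPKM in the knockout and 307 and 300 in the wild type (0.24, limma, adjusted p = 0.248), and MIC10 had 334, 297 and 361 against 295 and 318 (0.10).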
